A study of Mus musculus with 10 samples.

Results

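The subject is a set of 40 mouse antiviral genes that interferons induce, outside the Oas, Ifit, guanylate-binding protein and immunity-related GTPase families. The members were chosen by symbol with earlier results of these data known. Shares of the members and of all genes are therefore set side by side as descriptions, without a test of the set. Each of the 40 matched an Ensembl identifier among the 60676 rows of the count table. RNA was sequenced from cultured cells of 2 mouse tumour lines, the colon adenocarcinoma line MC38 and the melanoma line B16. In every library Sdc1, the gene of the heparan sulphate proteoglycan syndecan-1, had been knocked down, and every library came from cells stimulated with interferon gamma (IFNγ, 10 ng/ml) for 24 h. MC38 had 3 groups of 2 libraries: Sdc1 knockdown alone, Sdc1 knockdown with a c30 mutant, and Sdc1 knockdown with an ect mutant. B16 had 2 groups of 2 libraries: Sdc1 knockdown alone and Sdc1 knockdown with wild-type Sdc1. The labels say no more of the c30 and ect mutants, and they do not say whether a line was 1 clone. Libraries with intact Sdc1, without IFNγ or with an empty vector were not analysed here, so the data do not show how far IFNγ itself raised any member. Nothing in the labels ties the paired libraries of a group to separate cultures, and the p-values therefore cover the spread between these libraries, which may be technical.

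Interferons act through receptor-bound JAK kinases and STAT transcription factors. IFNγ acts largely through gamma-activated sequences (GAS) and induces among others the transcription factor IRF1, whereas type I and type III interferons act largely through interferon-stimulated response elements (ISRE), which IRF1 can also bind. The products of the member genes act at many steps of infection: IFITM proteins at membrane fusion, viperin and the dynamin-like Mx proteins in replication, tetherin at virus release, the ubiquitin-like ISG15 as a protein tag, and MDA5 and LGP2 as RNA sensors.

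The promoters of 6 members are shown because 3 of them (Isg15, Rsad2 and Cmpk2) were among the largest differences between the lines, 1 (Bst2) holds both motifs, and Ifitm1 and Ifitm2 were lower in B16. Each is the 150 bases before the annotated start, 5′ to 3′ on the gene's strand, from RefSeq (GRCm38.p6, whereas the counts were made on GRCm39). Capitals mark the ISRE letters GAAANNGAA or the GAS letters TTCNNNGAA on either strand, including matches that overlap each other.
Isg15: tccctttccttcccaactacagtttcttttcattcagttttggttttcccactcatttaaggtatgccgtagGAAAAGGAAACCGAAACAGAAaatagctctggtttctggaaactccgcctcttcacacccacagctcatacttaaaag
Rsad2: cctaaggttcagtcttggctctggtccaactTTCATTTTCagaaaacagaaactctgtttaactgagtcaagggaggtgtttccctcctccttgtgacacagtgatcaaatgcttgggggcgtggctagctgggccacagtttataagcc
Cmpk2: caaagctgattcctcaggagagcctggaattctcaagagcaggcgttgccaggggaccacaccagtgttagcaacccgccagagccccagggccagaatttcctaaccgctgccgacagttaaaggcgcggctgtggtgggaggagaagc
Bst2: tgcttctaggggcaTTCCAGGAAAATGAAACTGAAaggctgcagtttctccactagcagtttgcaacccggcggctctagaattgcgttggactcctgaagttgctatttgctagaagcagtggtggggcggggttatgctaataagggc
Ifitm1: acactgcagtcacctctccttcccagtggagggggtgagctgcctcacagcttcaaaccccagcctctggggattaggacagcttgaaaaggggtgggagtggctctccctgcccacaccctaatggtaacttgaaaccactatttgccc
Ifitm2: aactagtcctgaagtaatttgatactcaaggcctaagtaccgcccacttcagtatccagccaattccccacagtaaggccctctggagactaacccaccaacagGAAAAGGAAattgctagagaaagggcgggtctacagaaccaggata
The stretches are chr4:156200819-156200968 for Isg15 (minus strand), chr12:26456453-26456602 for Rsad2 (minus strand) and chr12:26469065-26469214 for Cmpk2 (plus strand). Those of the other 3 are chr8:71537473-71537622 for Bst2 (minus strand), chr7:140967926-140968075 for Ifitm1 (plus strand) and chr7:140955962-140956111 for Ifitm2 (minus strand). Isg15 has 3 overlapping ISRE matches between bases -78 and -58 from the start, and Bst2 has a GAS match that runs into 2 ISRE matches between bases -136 and -116. Rsad2 has 1 ISRE match at -119 to -111, read on the opposite strand, and Ifitm2 has 1 at -46 to -38. The printed stretches of Cmpk2 and Ifitm1 hold neither set of letters. Rsad2 and Cmpk2 are neighbouring genes that point away from each other.

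Promoter windows of 300 bases (250 before to 50 after the start) were found for 29 of the 40 members, in 36 windows. ISRE letters were present for 12 of these 29 members (41.4%) and for 9.76% of the 27025 genes with a window. In the 250 bases before the start alone the shares were 8 of 29 (27.6%) and 8.18%. GAS letters were present for 6 of 29 members (20.7%) and for 9.55% of all genes, or for 3 of 29 (10.3%) and 8.13% in the bases before the start alone. Both motifs were found for 4 members and neither for 15. The 12 members with ISRE letters had a median log2 difference of 1.98 between B16 and MC38 knockdown cells, and the 17 without had 1.02. The ranges overlapped widely, from -0.67 to 7.61 with the letters and from -8.35 to 6.23 without. For GAS letters the medians were 1.15 in the 6 members with them and 1.21 in the 23 without. With c30 in MC38, 1 of the 12 members with ISRE letters was called lower (median log2 fold change -0.15) and 8 of the 17 without (median -0.24). For GAS letters, 2 of the 6 members with them were called lower (median -0.089) and 7 of the 23 without (median -0.24). Of all genes tested, 4.45% were lower with c30. Apol6, Zbp1, Parp9, Parp10, Parp14 and Rtp4, all called lower with c30, had no window and are missing from these counts and medians. Mx1, Mx2, Usp18, Dhx58 and Tor3a had no window either. Of the members without a window, Mx1, Mx2, Usp18, Zbp1, Dhx58 and Rtp4 had log2 differences between lines of 3.27 to 5.42. Those of Apol6, Parp9, Parp10, Parp14 and Tor3a were 0.89 to 1.99. The line medians therefore leave out many of the larger differences. A match describes the letters of a window, not a bound site, and each median is a description with no test.

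**Figure D1:**
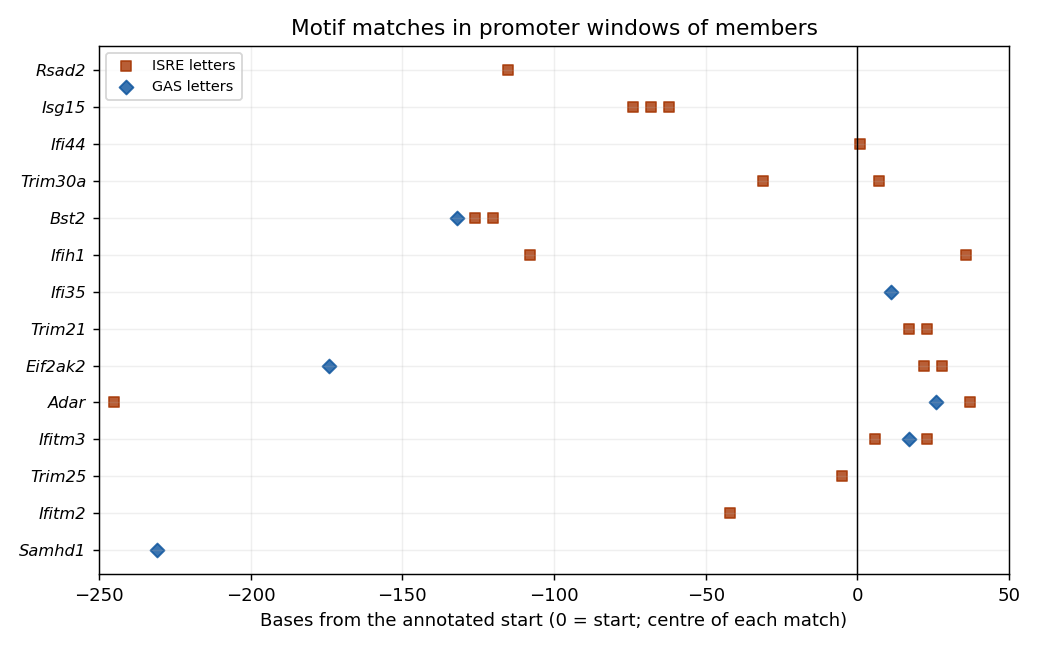
Positions of ISRE letters (squares) and GAS letters (diamonds) in the promoter windows of the 14 members that hold either. The x axis gives bases from the annotated start, with the centre of each match plotted. The Isg15 and Bst2 matches lie together upstream of the start, whereas those of Trim21, Ifitm3 and Ifi44 lie at or after it.

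Total counts per library were 11349447 to 15041133, and levels are given as CPM, counts per 1000000 of the TMM-normalised library size. They are not corrected for transcript length and serve to compare libraries, not genes. A count of 0 allows up to 3 counts, or 0.197 to 0.263 CPM. Sdc1 was at 24.2 and 29.5 CPM in the MC38 knockdown libraries, 94.9 and 99.2 with c30 and 22.4 and 24.8 with ect, and at 41.6 and 43.3 CPM in the B16 knockdown libraries and 73.3 and 58.6 with wild-type Sdc1. The libraries labelled ect overlapped the knockdown libraries in Sdc1 (log2 fold change -0.17 ± 0.10 SE, adjusted p = 0.325 by edgeR), so added Sdc1 RNA was not seen in them, and presence of the ect mutant rests on the label alone. The 2 B16 wild-type libraries stood furthest apart of any pair, with a chi-square of their counts of 20 per degree of freedom against 3.79 to 6.27 in the other pairs. Melanocyte markers summed to 13579 to 14732 CPM in B16. In MC38 they summed to 12.8 CPM in c30 replicate 2 and to 6.23 to 7.76 in the other 5 libraries. Leukocyte markers summed to 1.79 to 5.02 CPM over all libraries, with the defining T and NK cell genes Cd3e and Nkg7 at 0 in every group. Of the 10 leukocyte markers, 0 reached 1 CPM in both libraries of the MC38 knockdown and 1 did in each other group. Epithelial markers were low in MC38 although it is known as a carcinoma line: they summed to 12.6 to 20.2 CPM, with 2 or 3 of 9 at 1 CPM or more in both libraries of a group, and to 7.91 to 10.2 CPM in B16. Fibroblast and stromal markers summed to 709 to 731 CPM in the MC38 knockdown, 461 to 465 with c30, 469 to 476 with ect and 24.8 to 28.8 in B16. Of the 7 fibroblast markers, 6 reached 1 CPM in both libraries of each MC38 group. The 14 type I, II and III interferon genes together held 0 to 4 counts in any library.

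B16 knockdown cells held far more of the antiviral transcripts than MC38 knockdown cells. Of the 40 members, 35 were higher in B16 and 3 lower (edgeR adjusted p under 0.05), against 33.8% higher and 34.3% lower among 16877 genes tested. The median log2 difference was 1.56 over the members and -0.0098 over all genes. At least a 2-fold higher level was found for 27 members, at least 4-fold for 15, at least 8-fold for 13 and at least 16-fold for 6. Together the members took 0.220% to 0.261% of the counts in MC38 libraries and 0.713% to 0.808% in B16 libraries. The lines differ in tissue of origin and in much else, and the effects of these differences cannot be told apart here. In bulk RNA, fewer cells that express a gene and less of its RNA per cell cannot be told apart either.

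**Figure D2:**
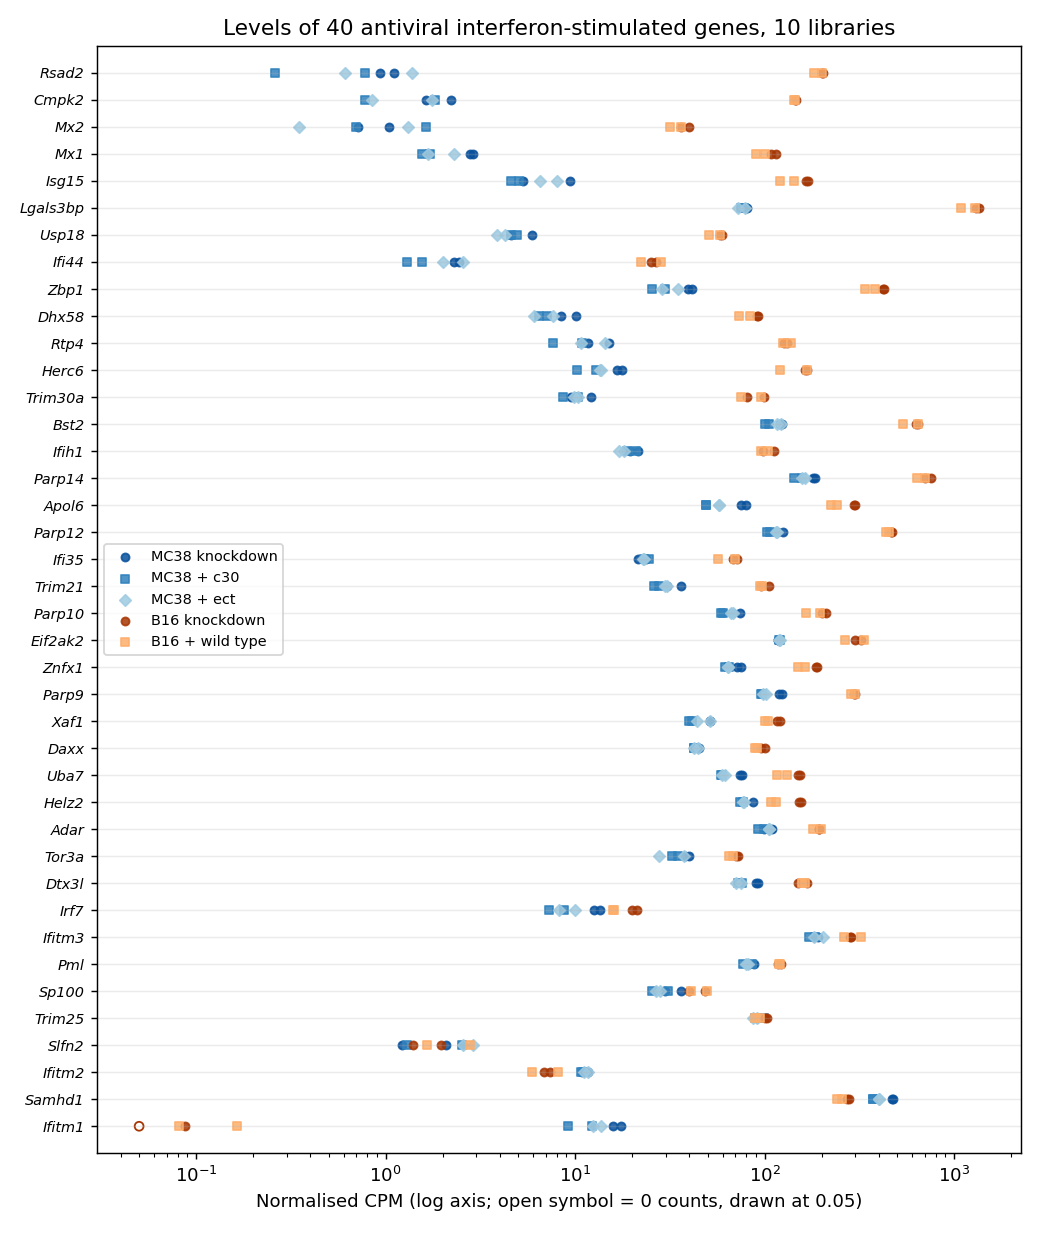
Level of each member in each of the 10 libraries, as normalised CPM on a log axis, with members ordered by the difference between the knockdown groups of the lines. MC38 libraries are blue and B16 libraries orange, and an open symbol marks a count of 0. Rsad2 at the top is at 0.26 to 1.38 CPM in MC38 and 183 to 202 in B16, while Ifitm1 at the bottom runs the other way.

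Among effectors that act on viruses, Rsad2 (ENSMUSG00000020641.17), which encodes viperin, an enzyme that makes a chain-terminating ribonucleotide, differed most of the 35. Rsad2 was at 0.932 and 1.11 CPM in the MC38 knockdown libraries (13 and 15 counts) and at 201 and 202 in those of B16 (2576 and 2317 counts). The groups were far apart, a 196-fold difference (log2 fold change 7.61 ± 0.16 SE, adjusted p = 4.45e-25 by edgeR). Its neighbour Cmpk2, a mitochondrial nucleotide kinase, was at 2.22 and 1.63 CPM in MC38 and 144 and 147 in B16. The Cmpk2 groups did not overlap (log2 fold change 6.23 ± 0.16 SE, adjusted p = 9.98e-23 by edgeR). Mx genes encode dynamin-like GTPases that block viruses, but RefSeq lists Mx1 and Mx2 as transcribed pseudogenes in its mouse reference assembly. Whether their RNA gives a working protein in these lines was not tested. Mx1 was at 2.80 and 2.89 CPM in MC38 and 114 and 108 in B16 (log2 fold change 5.28 ± 0.14 SE, adjusted p = 1.02e-22 by edgeR), and Mx2 at 0.717 and 1.04 CPM in MC38 against 36.2 and 39.8 in B16 (log2 fold change 5.42 ± 0.26 SE, adjusted p = 3.71e-16 by edgeR). Both B16 libraries exceeded both MC38 libraries by a wide margin for each Mx gene, although reads of this similar pair could be split between them. Ifi44 was at 2.29 and 2.45 CPM in MC38 and 26.8 and 25.2 in B16 (log2 fold change 3.45 ± 0.20 SE, adjusted p = 9.91e-15 by edgeR), again with no overlap.

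The ISG15 conjugation genes differed to unequal extents. Isg15 encodes the ubiquitin-like tag itself and was at 9.39 and 5.34 CPM in MC38 and 164 and 169.8 in B16. The B16 libraries lay well above, a 22.6-fold difference (log2 fold change 4.50 ± 0.15 SE, adjusted p = 9.73e-16 by edgeR), and the 2 MC38 libraries were themselves apart. Usp18, which removes ISG15 from its targets and restrains the type I interferon receptor, was at 5.95 and 4.6 CPM in MC38 and 59.7 and 57.9 in B16 (log2 fold change 3.48 ± 0.14 SE, adjusted p = 3.04e-18 by edgeR). Herc6, the ISG15 ligase of mice, differed by 3.26 (SE 0.13) and the ISG15-activating enzyme gene Uba7 by 1.02 (SE 0.074), both log2 fold changes and both called. Trim25, a ubiquitin ligase that activates the sensor RIG-I, had 0.16 (SE 0.075) and did not pass (edgeR adjusted p = 0.0677).

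The group of RNA sensing and its control holds more than RNA sensors. All 8 of its members were called higher in B16, with log2 fold changes from 0.66 to 4.05. The largest was in Lgals3bp, which encodes a secreted glycoprotein that binds galectin-3. Lgals3bp was at 79.6 and 80.5 CPM in MC38 and 1299.8 and 1345 in B16, without overlap (log2 fold change 4.05 ± 0.080 SE, adjusted p = 1.70e-25 by edgeR). The RNA sensor genes Dhx58 (LGP2) and Ifih1 (MDA5) had log2 fold changes of 3.31 (SE 0.13) and 2.36 (SE 0.10), and the helicase gene Znfx1 had 1.36 (SE 0.072). Adar, which edits adenosines in double-stranded RNA, had 0.90 (SE 0.072), and Irf7, the transcription factor that amplifies type I interferon production, had 0.66 (SE 0.15). Trim30a, a restraint on inflammatory signalling in mice, had 3.05 (SE 0.14). The antibody receptor gene Trim21 had 1.60 (SE 0.094). Trim30a lies in a cluster of similar genes, so its count is uncertain where reads match several of them.

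The 5 genes of the ADP-ribosylation group were called higher in B16. Parp9 and Dtx3l encode a poly(ADP-ribose) polymerase family member and its ubiquitin ligase partner, and Parp14, Dtx3l and Parp9 are consecutive neighbours on chromosome 16. Their log2 fold changes were 1.99 (SE 0.070) for Parp14, 1.29 (SE 0.066) for Parp9 and 0.80 (SE 0.073) for Dtx3l. Parp12 had 1.94 (SE 0.066) and Parp10 had 1.53 (SE 0.080). The PML nuclear body genes Pml, Sp100 and Daxx, the coactivator gene Helz2 and the torsin gene Tor3a were called higher as well, with log2 fold changes from 0.43 to 1.13. Sp100, the smallest of them (log2 fold change 0.43 ± 0.13 SE, adjusted p = 0.00454 by edgeR), did not pass when MC38 knockdown replicate 1 or B16 knockdown replicate 1 was left out.

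Further effectors called higher in B16 were Zbp1, a sensor of Z-form nucleic acid that triggers cell death, at 3.39 (SE 0.088) on the log2 scale, and Rtp4, a chaperone that dampens the interferon response in mice, at 3.27 (SE 0.13). Bst2, the gene of tetherin, had 2.38 (SE 0.076), Apol6 of the apolipoprotein L family 1.96 (SE 0.069) and Ifi35 1.62 (SE 0.11). Eif2ak2, which encodes the RNA-activated kinase PKR, had 1.40 (SE 0.082) and Xaf1, a promoter of apoptosis, 1.21 (SE 0.083). The Schlafen gene Slfn2 was at 1.22 and 2.08 CPM in MC38 and 1.95 and 1.40 in B16, and the groups overlapped (log2 fold change 0.037 ± 0.42 SE, adjusted p = 0.942 by edgeR).

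The 3 members that were lower in B16 were effectors. Ifitm1 (ENSMUSG00000025491.15), which encodes an interferon-induced membrane protein that hinders virus entry, was at 15.8 and 17.5 CPM in the MC38 knockdown libraries (221 and 236 counts). The B16 knockdown libraries held 0 and 1 count and the B16 wild-type libraries 1 and 2, all under the floor of 3 counts. The pooled knockdown counts, 457 against 1, gave a ratio of 404 (95% interval 72.1 to 15980, counting error only). The other IFITM genes beside it on chromosome 7 differed less. Ifitm2 was at 11.8 and 10.8 CPM in MC38 and 7.35 and 6.82 in B16 without overlap (log2 fold change -0.67 ± 0.19 SE, adjusted p = 0.0024 by edgeR), and Ifitm3 was higher in B16, at 282 and 287 CPM against 191 and 181 in MC38 (log2 fold change 0.61 ± 0.082 SE, adjusted p = 2.76e-07 by edgeR). The 3 IFITM genes are similar in sequence, and the sources do not say how reads that match several were counted. Samhd1 (ENSMUSG00000027639.17), whose product degrades the nucleotides that viral DNA synthesis needs, was at 473 and 476 CPM in MC38 and 278 and 272 in B16. Its groups were also apart, with B16 1.72-fold lower (log2 fold change -0.79 ± 0.062 SE, adjusted p = 6.81e-12 by edgeR).

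Setting c30 against the MC38 knockdown addressed which transcripts differ when the c30 mutant is present. Of the 40 members 15 were lower with c30 and 0 were higher, against 4.45% lower and 3.3% higher of 15031 genes tested (edgeR adjusted p under 0.05). The median log2 fold change was -0.24 over the members and 0.0013 over all genes. Relative to the knockdown mean, the median of the 39 members at 1 CPM or more was 79.3% and 83.0% in the c30 libraries. The falls were small, from 1.15-fold to 1.62-fold. By role, 7 of 17 effectors were lower, 2 of 5 ISG15 conjugation genes and 1 of 8 genes of RNA sensing and its control. Of the ADP-ribosylation genes 5 of 5 were lower, and of the nuclear body and coactivator genes 0 of 5.

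**Figure D3:**
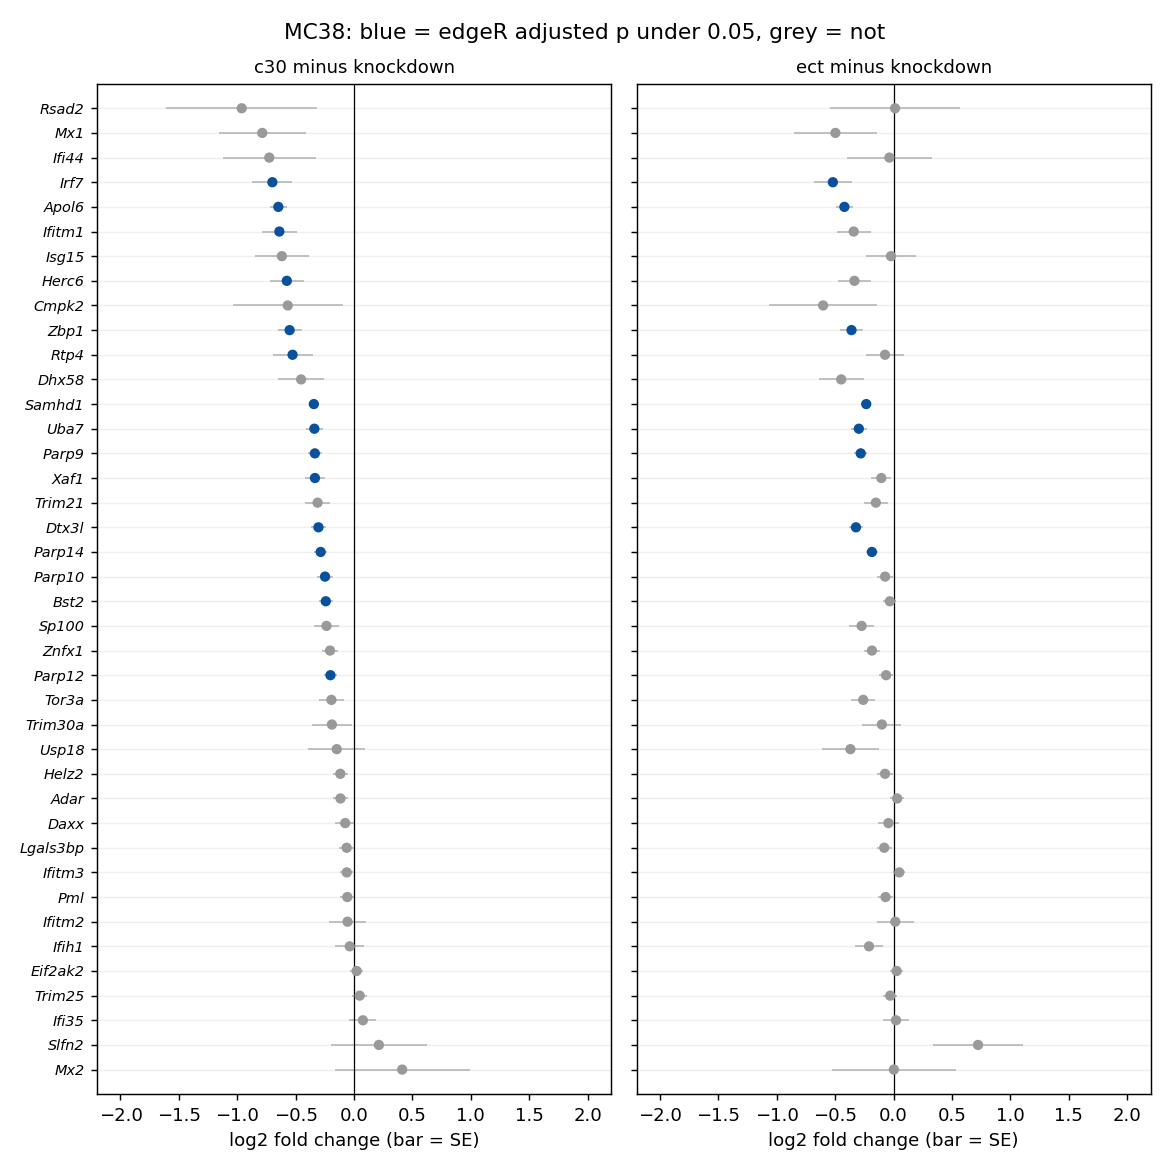
Log2 fold change of each member against the MC38 knockdown, with c30 on the left and ect on the right. Bars are SE from the fit, blue points have an edgeR adjusted p under 0.05, and both panels share the knockdown libraries. Blue points lie below 0 in both panels, 15 for c30 and 8 for ect, and members with few counts such as Rsad2 and Mx2 have wide bars.

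Of the effectors, Apol6 (ENSMUSG00000033576.13) had the smallest adjusted p. Its human counterpart promotes cell death. Apol6 was at 79.4 and 74.9 CPM in the knockdown, 49.1 and 49.3 with c30 and 57.3 and 57.8 with ect. The libraries of each form lay below both knockdown libraries, and the c30 libraries below the ect libraries. The group mean went from 77.1 ± 3.21 CPM to 49.2 ± 0.171 with c30 (SD, n = 2 per group), a 1.57-fold fall (log2 fold change -0.65 ± 0.074 SE, adjusted p = 1.14e-10 by edgeR). Samhd1 was at 473 and 476 CPM in the knockdown, 375 and 372 with c30 and 404 and 401 with ect. Its 3 groups were separate and each pair of libraries close together (log2 fold change -0.34 ± 0.044 SE, adjusted p = 3.96e-09 by edgeR for c30). Zbp1 was at 39.5 and 41.5 CPM in the knockdown, 25.4 and 29.8 with c30 and 34.8 and 28.6 with ect. Both forms lay below the knockdown, while c30 and ect overlapped (log2 fold change -0.55 ± 0.10 SE, adjusted p = 7.47e-05 by edgeR for c30).

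Ifitm1 was at 15.8 and 17.5 CPM in the knockdown, 12.2 and 9.11 with c30 and 12.5 and 13.7 with ect. The c30 libraries lay below both other groups and were themselves apart (log2 fold change -0.64 ± 0.15 SE, adjusted p = 0.00249 by edgeR for c30). Bst2, the tetherin gene, had -0.24 (SE 0.058), Xaf1 -0.33 (SE 0.088) and Rtp4 -0.53 (SE 0.17), all called lower with c30. Of the effectors that did not pass, Ifitm2 and Ifitm3 had -0.055 (SE 0.16) and -0.062 (SE 0.054). Eif2ak2 had 0.023 (SE 0.057), Ifi35 0.076 (SE 0.12) and Slfn2 0.21 (SE 0.41). The genes with few counts in MC38 had large errors, with -0.96 (SE 0.65) for Rsad2, -0.79 (SE 0.37) for Mx1, 0.41 (SE 0.58) for Mx2, -0.73 (SE 0.40) for Ifi44 and -0.57 (SE 0.47) for Cmpk2. None of these 5 differences passed, and the part that depth had in this was not tested.

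In the ISG15 conjugation group, Uba7 was at 76.0 and 73.8 CPM in the knockdown, 59.4 and 58.9 with c30 and 59.9 and 61.8 with ect. Both mutant groups lay below the knockdown (log2 fold change -0.34 ± 0.071 SE, adjusted p = 0.000449 by edgeR for c30). Herc6 was lower with c30 too (log2 fold change -0.58 ± 0.15 SE, adjusted p = 0.00535 by edgeR). Isg15 was at 4.57 and 5.03 CPM with c30, both below the knockdown libraries given above, and did not pass (log2 fold change -0.62 ± 0.23 SE, adjusted p = 0.0865 by edgeR); without knockdown replicate 2 it did (adjusted p = 0.0084). Usp18 had -0.15 (SE 0.24) and Trim25 0.048 (SE 0.062), neither called.

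The ADP-ribosylation genes were lower with c30 as 5 of 5. Parp9 was at 123 and 119 CPM in the knockdown, 95.2 and 96.9 with c30 and 102 and 97.8 with ect. The knockdown libraries stood above the other 4 (log2 fold change -0.34 ± 0.059 SE, adjusted p = 1.86e-05 by edgeR for c30). Dtx3l, its partner, was at 92.4 and 90.3 CPM in the knockdown, 72.2 and 75.6 with c30 and 70.3 and 75.3 with ect. Its c30 and ect libraries overlapped and lay below the knockdown (log2 fold change -0.30 ± 0.064 SE, adjusted p = 0.000454 by edgeR for c30). Parp14 was at 180.2 and 185 CPM in the knockdown, 142 and 157 with c30 and 158 and 162 with ect. Every c30 and ect library was below the knockdown libraries (log2 fold change -0.29 ± 0.054 SE, adjusted p = 7.62e-05 by edgeR for c30). Parp10 had -0.25 (SE 0.072) and Parp12 -0.20 (SE 0.058). Both lost the call in 5 of 10 alternatives, among them DESeq2 and all 10 libraries in 1 fit. Without c30 replicate 1 Parp14 lost it too, which left 2 of the 5 genes, Parp9 and Dtx3l, called.

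In the group of RNA sensing and its control, the transcription factor gene Irf7 was the 1 gene called. It was at 12.5 and 13.5 CPM in the knockdown, 7.24 and 8.77 with c30 and 10.0 and 8.26 with ect. Both mutants lay below the knockdown, and their ranges overlapped (log2 fold change -0.70 ± 0.17 SE, adjusted p = 0.00355 by edgeR for c30). Trim21 had -0.31 (SE 0.11) (edgeR adjusted p = 0.0509) and Znfx1 -0.21 (SE 0.070) (adjusted p = 0.0541), just outside the threshold. Ifih1 had -0.037 (SE 0.12), Dhx58 -0.45 (SE 0.20), Adar -0.12 (SE 0.061), Trim30a -0.19 (SE 0.17) and Lgals3bp -0.063 (SE 0.065). Of the nuclear body and coactivator genes, Sp100 had -0.24 (SE 0.11), Pml -0.057 (SE 0.063), Daxx -0.075 (SE 0.088), Helz2 -0.12 (SE 0.066) and Tor3a -0.19 (SE 0.10), none called.

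**Figure D4:**
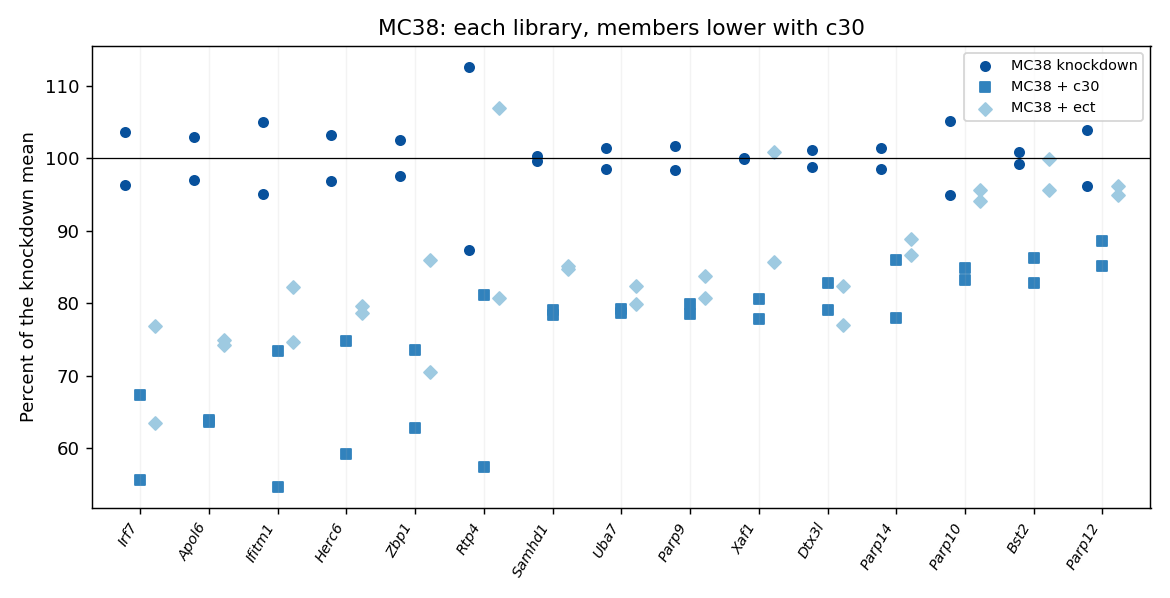
Each MC38 library as a percent of the knockdown mean for the 15 members called lower with c30. Circles are knockdown, squares c30 and diamonds ect libraries. Each pair of c30 squares lies under the knockdown circles, and for Apol6 and Samhd1 the ect diamonds lie between them.

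The count for c30 leaned on the libraries and on the fit. It was 8 without c30 replicate 1, 10 without c30 replicate 2, 11 without knockdown replicate 2 and 15 without knockdown replicate 1, 8 with DESeq2 and 8 with all 10 libraries in 1 edgeR fit. DESeq2 gave an adjusted p to 24 of the 40 members here. Zbp1, Parp9, Dtx3l, Samhd1, Uba7 and Apol6 were called lower with c30 in every one of these fits. The summed fibroblast and stromal markers were lower with c30 and with ect, as given above, and their part in the results was not tested. Leukocyte markers were near 0 in the 3 groups.

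The libraries labelled as carrying the ect mutant, in which no added Sdc1 RNA was seen, were compared with the same knockdown libraries. Of the 40 members 8 were lower with ect and 0 higher, against 4.61% lower and 3.55% higher of all genes tested. The median log2 fold change was -0.10 over the members and 0.0016 over all genes, and the median member stood at 90.4% and 88.9% of the knockdown mean. By role, 3 of 17 effectors were lower, 1 of 5 ISG15 conjugation genes and 1 of 8 genes of RNA sensing and its control. Of the ADP-ribosylation genes 3 of 5 were lower, and of the nuclear body and coactivator genes 0 of 5. Apol6 fell 1.34-fold (log2 fold change -0.42 ± 0.071 SE, adjusted p = 9.75e-06 by edgeR) and Samhd1 1.18-fold (log2 fold change -0.23 ± 0.043 SE, adjusted p = 5.23e-05 by edgeR). Dtx3l had -0.32 (SE 0.063), Parp9 -0.28 (SE 0.058), Parp14 -0.19 (SE 0.053) and Uba7 -0.30 (SE 0.070), and Zbp1 had -0.36 (SE 0.10) and Irf7 -0.52 (SE 0.17). Their library values stand with those of c30 above, and in each case both ect libraries were below both knockdown libraries.

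Members without a call for ect included Bst2 (log2 fold change -0.032 ± 0.057 SE), Isg15 (-0.023 ± 0.21 SE), Rtp4 (-0.074 ± 0.16 SE), Xaf1 (-0.11 ± 0.085 SE) and Parp12 (-0.064 ± 0.057 SE). Parp10 had -0.073 (SE 0.070), Ifitm1 -0.34 (SE 0.14) and Herc6 -0.34 (SE 0.14). Znfx1 (log2 fold change -0.19 ± 0.069 SE, adjusted p = 0.0829 by edgeR) and Sp100 (log2 fold change -0.27 ± 0.11 SE, adjusted p = 0.103 by edgeR) also missed the threshold. The count was 5 without knockdown replicate 2, 5 with DESeq2, which gave an adjusted p to 25 of the members, and 5 with all 10 libraries in 1 fit. Parp9, Dtx3l, Samhd1, Uba7 and Apol6 were called lower with ect in every alternative fit.

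Set directly against each other, the 2 mutants gave no called difference in any member. edgeR called 0 of 40, and DESeq2 called 0 of the 33 to which it gave an adjusted p. At an unadjusted p under 0.05 there were 10 of 40 members and 8.72% of all genes. By adjusted p 0.166% of all genes were lower and 0.133% higher with c30 than with ect. Both c30 libraries lay below both ect libraries for 18 of the 40 members and above them for 3, against 19.1% and 19.6% of all genes. The median log2 difference was -0.094 over the members and 0.00023 over all genes. Bst2 came nearest. It was at 105 and 101 CPM with c30, 122 and 117 with ect and 123 and 121 in the knockdown. The c30 libraries lay below the other 4 (log2 fold change -0.21 ± 0.058 SE, adjusted p = 0.0962 by edgeR for c30 minus ect). For Apol6 the difference was -0.23 (SE 0.076) and for Samhd1 -0.11 (SE 0.044), while Dtx3l had 0.018 (SE 0.065) and Uba7 -0.042 (SE 0.073). A p above the threshold does not show that the mutants act alike, and the Sdc1 level differed between them (c30 minus ect, log2 fold change 2.03 ± 0.089 SE).

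In B16 the comparison was wild-type Sdc1 against the knockdown. edgeR called 0 of 39 members tested (Ifitm1 had too few counts) and 0.0% of all 14336 genes in either direction. At an unadjusted p under 0.05 there were 10 members and 791 genes (5.52%), and DESeq2 called 1 member and 11 genes. Both wild-type libraries lay below both knockdown libraries for 18 of the 39 members and above them for 0, against 17.8% and 17.1% of all genes. The median log2 fold change was -0.11 over the members and 0.00031 over all genes.

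**Figure D5:**
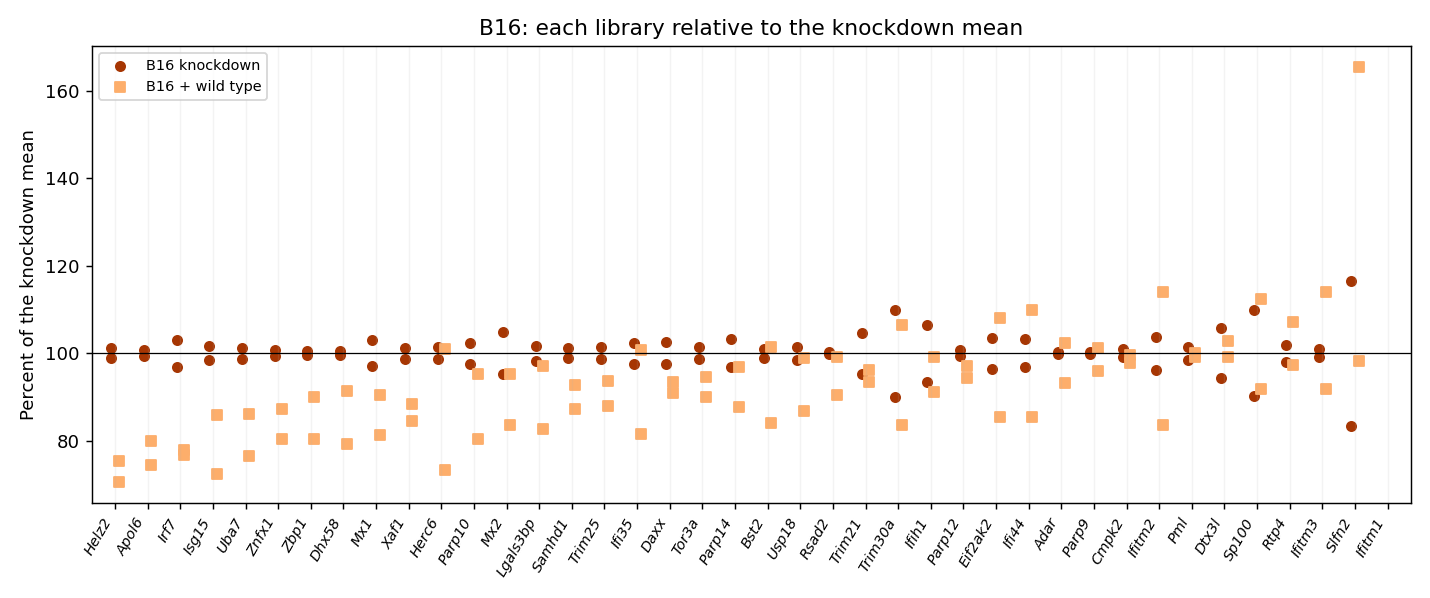
Each B16 library as a percent of the knockdown mean, with members ordered by log2 fold change. Circles are knockdown and squares wild-type libraries, and Ifitm1 is left empty because it held 0 to 2 counts. The squares of the first 10 members, from Helz2 to Xaf1, lie under the circles, as do both squares of 8 of the members further right, such as Samhd1 and Trim25, while the squares and circles of the other 21 overlap.

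Helz2, the coactivator gene, had the smallest p in B16. It was at 155 and 151 CPM in the knockdown and 115 and 108 with wild-type Sdc1. The groups were apart, but the difference did not pass (log2 fold change -0.45 ± 0.084 SE, adjusted p = 0.269 by edgeR). It was the member DESeq2 called (adjusted p = 0.047). Apol6 was at 302 and 298 CPM in the knockdown and 223 and 239.8 with wild type, also without overlap (log2 fold change -0.37 ± 0.082 SE, adjusted p = 0.444 by edgeR). Isg15, at 164 and 169.8 CPM in the knockdown and 144 and 121 with wild type, did not pass (log2 fold change -0.33 ± 0.10 SE, adjusted p = 0.796 by edgeR). The same held for Irf7, at 21.2 and 19.9 CPM in the knockdown and 16 and 15.8 with wild type (log2 fold change -0.37 ± 0.14 SE, adjusted p = 0.877 by edgeR). Uba7 had -0.30 (SE 0.089), Znfx1 -0.25 (SE 0.083) and Zbp1 -0.23 (SE 0.085), and the other members lay between -0.22 (Dhx58) and 0.39 (Slfn2). Parp9, Dtx3l and Cmpk2 were near 0, with -0.018 (SE 0.081), 0.018 (SE 0.088) and -0.016 (SE 0.082).

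The B16 count depended on which wild-type library was kept. With wild-type replicate 1 left out, edgeR called 11 members lower and 1295 genes in all (4.58% lower and 4.01% higher), and with replicate 2 left out it called 8 members lower and 326 genes (0.992% lower and 1.18% higher). In both of these fits Isg15, Apol6 and Helz2 were among the members called. The lone wild-type library is then assumed to vary like the knockdown pair. Bst2 at 646 and 536 CPM and Herc6 at 121 and 166 show how far the wild-type libraries diverged, in opposite directions. Sdc1 itself was higher with wild type in both libraries without passing (log2 fold change 0.64 ± 0.12 SE, adjusted p = 0.269 by edgeR).

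Whether the wild-type effect in B16 differed from the c30 effect in MC38 was tested as an interaction over all 10 libraries. edgeR called 0 of 40 members, against 0.136% lower and 0.148% higher of all genes. The 40 include Ifitm1, which held 0 to 2 counts in the B16 libraries. Its difference (2.02 ± 1.40 SE) therefore says little of a wild-type effect in B16. DESeq2 called 0 of the 34 members to which it gave an adjusted p. At an unadjusted p under 0.05 there were 7 of 40 members and 10.4% of all genes. The smallest adjusted p was that of Parp9, whose effect was -0.34 (SE 0.059) with c30 and -0.018 (SE 0.081) in B16 (difference 0.32 ± 0.093 SE, edgeR adjusted p = 0.162). Helz2 came next and went the other way (difference -0.34 ± 0.11 SE, edgeR adjusted p = 0.204). Apol6, at -0.65 (SE 0.074) and -0.37 (SE 0.082), had a difference of 0.28 ± 0.10 SE with an edgeR adjusted p of 0.286. The median difference was 0.14 over the members, of which 9 were below 0, and -0.0036 over all genes. Without wild-type replicate 1 the difference was positive and called for 7 members and negative and called for 1, against 2.84% and 3.25% of all genes. Without wild-type replicate 2 it was positive and called for 2 members and negative and called for 0, against 1.31% and 0.763% of all genes. The forms of Sdc1 and the lines both differ in this comparison and cannot be told apart.

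Other interferon genes were followed as fixed lists beside the members, and these lists too were chosen with earlier results of these data known. Their counts stand against these shares of all genes: 4.45% lower and 3.3% higher with c30, and 4.61% and 3.55% with ect. Between lines the shares were 34.3% lower and 33.8% higher in B16. Of 20 interferon signalling genes, 0 were higher and 2 lower with c30, namely Stat2 (log2 fold change -0.29 ± 0.057 SE) and Irf1 (-0.17 ± 0.044 SE). With ect, Stat2 was lower (-0.19 ± 0.056 SE) and Socs1, a feedback inhibitor of JAK kinases, higher (0.58 ± 0.12 SE). Irf9 had -0.040 (SE 0.081) with c30 and was not called. Between lines 12 of the 20 were higher in B16, among them Stat2 (1.79 ± 0.065 SE) and Stat3 (1.62 ± 0.066 SE), and 4 were lower, among them Irf8, a transcription factor of the interferon response (-4.26 ± 0.21 SE). The receptor gene Ifngr1 was one of the 4 (-1.32 ± 0.11 SE), while Ifngr2 was higher (0.65 ± 0.10 SE).

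Of 17 nucleic acid sensing genes, 0 were called with c30. With ect 1 was higher, the helicase gene Dhx9 (0.14 ± 0.042 SE), and 1 lower, Tmem173, which encodes the adaptor STING (-0.30 ± 0.088 SE). In a list of this size, the c30 and ect counts are near the shares of all genes given above. Between lines 13 were higher in B16 and 3 lower, with Ddx58, the gene of RIG-I, at 2.18 (SE 0.092), its activating ligase gene Rnf135 at 2.69 (SE 0.13) and the RNA sensor gene Tlr3 at 1.86 (SE 0.11). Of 6 enzymes that work with ISG15 or ubiquitin, Ube2l6, the ISG15-conjugating enzyme, was lower with c30 (-0.25 ± 0.071 SE) and with ect (-0.21 ± 0.070 SE), and the 6 were higher in B16.

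The Oas and Ifit families had 9 of 13 tested genes lower with c30 and 5 of 13 with ect, with a median log2 fold change of -0.82 and -0.35. Ifit3, which binds foreign RNA together with its relatives, had -1.39 (SE 0.20) with c30 and -0.93 (SE 0.18) with ect. Of 17 guanylate-binding proteins and immunity-related GTPases, which act on intracellular pathogens, 12 were lower with c30, and with ect 8 were lower and 1 higher. Their medians were -0.26 with c30 and -0.16 with ect, beside -0.24 and -0.10 for the members. Set directly against ect, c30 had 3 of 17 GTPases called lower and 0 of 13 Oas and Ifit genes, against 0.166% of all genes. The interaction called 1 of 15 Oas and Ifit genes and 1 of 18 GTPases higher, against 0.148% of all genes. The signalling, sensing and conjugation lists had 0 called in either comparison. Between lines 13 of 15 Oas and Ifit genes were higher in B16 and 1 lower, and 16 of 18 of the GTPases were higher and 2 lower. In B16 none of these lists had a gene called with wild-type Sdc1 by edgeR, as was the case for all genes.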

How the data were processed

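Total RNA was made into messenger RNA libraries and sequenced from both ends, per the labels. The deposited table holds the authors' raw counts per gene for 10 libraries. The submitters' processing notes name Trimmomatic, HISAT2 2.0.5, HTSeq, featureCounts, DESeq2 and the build GRCm39; the annotation, the strand setting and the handling of reads with several matches are not given in the sources used here.

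Symbols were matched by Ensembl identifier (51884 of 60676 rows). The members, roles, lists and markers were chosen with earlier results of these data known. Every member is accounted for; values per library are given for up to 8 called members with the smallest adjusted p in a comparison with the knockdown, for the 8 largest rises and all falls between lines, and for members near 0, and other values were added beside members of the same role.

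Counts were tested with edgeR 4.0.16 (R 4.3.3): filterByExpr, TMM, robust quasi-likelihood, 2-sided, Benjamini-Hochberg adjustment over all genes tested, called under 0.05. The MC38 groups shared 1 fit of 6 libraries (coefficient of biological variation 4.84%), B16 used 4 (8.68%), and comparisons between lines used 10 (6.65%). CPM per library and SDs use the TMM sizes of the 10. Intervals at the 95% level and the floor of 3 counts cover counting error only.

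Alternatives were RLE size factors, no filter, 5 CPM in 2 libraries, DESeq2 1.42.0, the replicate number as a block, each library left out, and all 10 libraries (or the 4 knockdown libraries) in 1 fit; for motifs, the upstream bases alone. The fits were tried on counts simulated with the same spread in every comparison. That trial does not cover the wider spread of the B16 libraries.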

Additional observations from a re-analysis of the deposited data

How the results depend on the processing

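For the called members, 563 values under an alternative stayed past the threshold in the same direction, 42 lost it and 0 changed direction. Members not called gave 1836 values, of which 42 passed the threshold and 110 changed sign. Values to which DESeq2 gave no adjusted p were left out of these counts. Members called with c30 (15) were 8 with DESeq2, 8 with all 10 libraries in 1 fit and 8 to 15 when a library was left out, and with ect (8) they were 5, 5 and 5 to 8. All genes called with c30 (1165) were 418 with DESeq2, 254 with all 10 libraries and 464 to 992 without a library, with ect (1227) 493, 249 and 776 to 984, and between c30 and ect (45) 15, 8 and 18 to 44. DESeq2 gave an adjusted p to fewer genes. In B16, members called (0) were 1 with no filter, 1 with DESeq2, 2 with all 10 libraries and 0 to 11 without a library, and all genes called (0) were 42, 11, 27 and 3 to 1295, with 15 under the replicate block. The replicate block moved no other count past 1.5 times: with it, 15 members were called for c30, 8 for ect and 0 in B16. No shared difference by replicate number was seen, as the differences between replicates correlated at -0.052 to 0.017 between groups. This does not show how the libraries were cultured or processed. Members called in the interaction (0) were 0 to 8 without a library, and all genes called (48) were 159 with no filter, 78 with DESeq2 and 13 to 1096 without a library. The cause of these shifts was not tested. Between lines, 37 of 38 member calls held in every alternative. With 2 libraries a group, a member with few counts in MC38, such as Rsad2 at 0.26 to 1.38 CPM, limits what depth can show.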
